A study of Rattus norvegicus with 25 samples.

Results

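The comparison described here set the basolateral amygdala (BLA) of rats that had been stressed and later scored low for anxiety-like behavior (stress-low) against that of undisturbed controls. It rests on 9 of the 25 libraries of the series, 6 from control animals (numbers 14, 17, 27, 28, 32 and 35) and 3 from stress-low animals (22, 30 and 34). Libraries were chosen by the group, region and animal number in their names. Every rat was an adult male wild-type Sprague-Dawley. Stress was a single session of 3 h immobilization together with predator scent, and brains were frozen on day 9, so the RNA reflects a state long after the session and after behavioral testing. Composite scores of anxiety-like behavior lay between 0 and 2 in the stress-low animals, whereas the controls were taken from across the control range of 0 to 6. The low group was therefore picked at 1 end of its range, and the comparison holds both the exposure and the selection by behavior, which cannot be told apart here. Poly-A RNA came from punches of the left hemisphere, with 1 library for each animal.

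The BLA is a cluster of glutamatergic projection neurons, interneurons and glia that assigns emotional value to cues and is central to fear learning. Stress hormones act on it through the mineralocorticoid and glucocorticoid receptors, and corticotropin-releasing hormone, neuropeptide Y and monoamines tune its excitability. Severe stress is known to leave lasting effects on the dendrites and synapses of its neurons, and myelin and astrocytes of the region can also respond. The comparison asks which transcripts of this region stand at another level in animals that went through the stressor without a lasting anxiety-like phenotype.

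The libraries held transcripts of the markers listed for principal neurons of the BLA, which alone do not identify the region. Slc17a7, the vesicular glutamate transporter of its projection neurons, lay between 817.5 and 1184 TPM (transcript shares that are corrected for gene length and scaled to the same total in every library) in the 9 libraries, and all 11 principal neuron markers that were found in the annotation were tested. Of 12 choroid plexus and ependymal gene models only 4 passed the filter on low counts and 3 were listed at 0. Depth was 12709493 to 17165791 expected counts in the controls and 13090880 to 21115339 in stress-low. Spearman correlations of TPM across genes were 0.982 to 0.990 between pairs of libraries within the controls, 0.985 to 0.989 within stress-low and 0.982 to 0.990 across the groups, as descriptions, and every pair had at least 151 genes that differed by more than 1 on the log2(TPM + 1) scale, so no library was a copy of another.

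Before the results, 3 libraries need a word. The control library of animal 2 had been set aside as an outlier. With it included, the first principal component held 24.4% of the variance and this library scored -47.3 on it, against -10.8 or above for the other 9. The library of animal 35 is a control by its name, but its treatment field says stressed. In stress-low animal 30, several marker lists stood apart from the other 8 libraries. Its mean log2(TPM + 1) over the markers of striatum and central amygdala was 0.97 above the control mean, against -0.41 and 0.02 in animals 22 and 34, and the control of animal 35 was at 0.85. Over oligodendrocyte and myelin genes animal 30 was at 0.52, while the other 8 libraries lay between -0.24 and 0.13. Values without 1 of these libraries are given beside a number of the results below. Without animal 30 the count of higher members also moved from 7 to 4 of 16 astrocyte, 11 to 6 of 29 matrix, 17 to 12 of 31 chromatin and 13 to 19 of 28 heat shock genes. Without animal 2 the first component held only 17.8% of the variance and the second 16.9%. On the first, stress-low scored -0.45, 14.6 and -0.01 and the controls -36.3 to 10.5, so the groups overlapped.

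No gene differed between stress-low and control BLA at an adjusted p under 0.05 in edgeR's quasi-likelihood test (0 of 15230 genes, 0%). The smallest adjusted p was 0.9998. At an unadjusted p under 0.05 there were 419 genes (2.75% of those tested), 176 higher (1.16%) and 243 lower (1.6%) in stress-low. When no gene differs, this threshold is expected to pass a share of 0.05, so 2.75% was no excess. DESeq2 put 1 gene under an adjusted p of 0.05 and 330 under an unadjusted one. Of the 419, 42.0% were higher in stress-low. With limma on log2(TPM + 1), which differs in test, filter and scale and calls another set of genes, 71.0% of the 390 at that threshold were higher, and the median log2 fold change of all genes was 0.04 in place of -0.00.

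The size of difference that these libraries could resolve varied between genes. Log2 fold changes had standard errors with a median of 0.11. For 89.7% of genes the 95% interval of the fold change lay inside a 2-fold change either way, and for 75.4% inside 1.5-fold. A log2 fold change beyond 1 in size was seen for 119 genes, of which 53 were among the 419. Among the 419 the median size of the log2 fold change was 0.34.

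**Figure D1:**
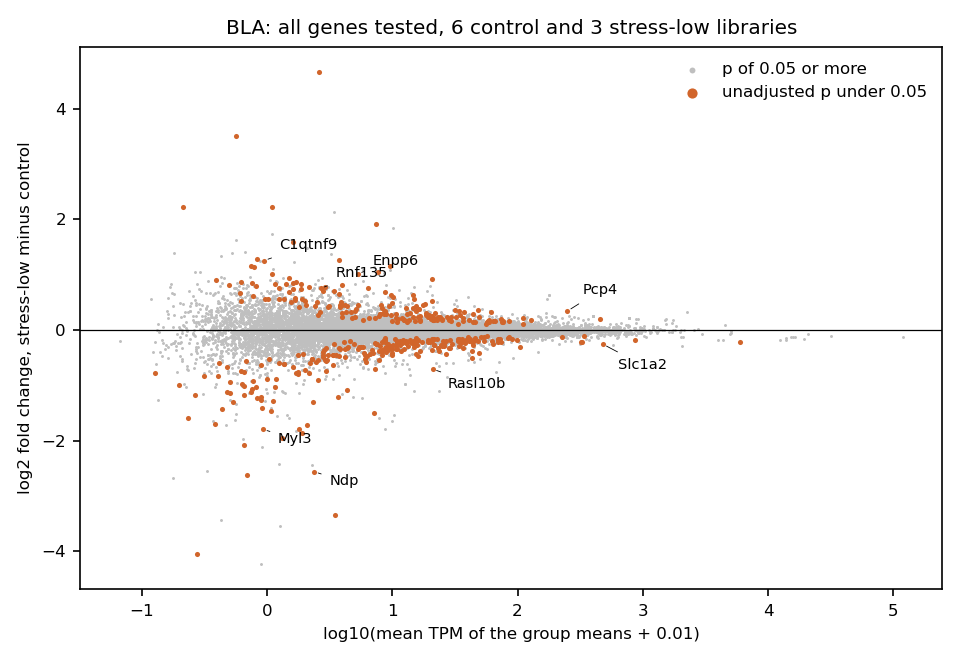
Every point is 1 of the genes tested, with log10 of the mean TPM (plus 0.01) across and the log2 fold change of stress-low minus control upward; orange points have an unadjusted p under 0.05 and genes with a group at 0 reads are not drawn. The cloud narrows toward abundant genes, and none of the orange genes passed the adjusted threshold.

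The genes described next were taken by their small unadjusted p, 12 in each direction, so their differences are descriptions of the top of the list. Of these 24 genes, 16 had TPM values that did not overlap between the groups, and 9 did not when control 2 was included, which stood at 3.33 TPM for Rnf135, 63.0 for Cttn and 40.1 for Mrap2. Statements on overlap below are over the 6 controls. Over all genes tested, every stress-low library was above every control in 1.1% and below every control in 0.289%. A random labeling of the 9 libraries puts all 3 stress-low libraries on top in 1 of 84 cases, a share of 0.0119. The upward share was thus near that of a random labeling, and the downward share was below it. At an unadjusted p under 0.05 in edgeR, 176 genes were higher and 243 lower. TPM and the counts of the fit are scaled differently, so TPM means and log2 fold changes can differ in sign where the difference is small. An exact two-sided permutation test of the TPM values, which has 84 labelings and cannot go below 0.0119, gave a p under 0.05 for 20 of the 24, but these genes had been picked by p on the same libraries.

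Rnf135, a ubiquitin ligase of antiviral RNA sensing, led the genes that were higher in stress-low. The controls were at 1.87, 1.67, 2.06, 2.34, 2.12 and 1.61 TPM and stress-low at 3.13, 3.53 and 3.49. All 3 stress-low libraries were above all controls. The log2 fold change was 0.75 (SE 0.16, adjusted p = 0.9998 in edgeR), between 0.70 and 0.84 when any 1 library was left out. The 3 stress-high animals, compared with the same controls, were at 2.54 to 2.85 TPM, between the groups.

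Enpp6, a choline phosphodiesterase that marks newly formed oligodendrocytes, was at 2.86, 2.78, 4.42, 3.73, 3.44 and 3.22 TPM in the controls. In stress-low it was at 4.39, 11.3 and 5.78. The groups overlapped at 1 value and animal 30 was far above the rest. The log2 fold change was 1.02 (SE 0.23, adjusted p = 0.9998 in edgeR) with all libraries and 0.58 without animal 30. Pllp, a membrane protein of myelin, was at 39.2 to 50.7 TPM in the controls (median 43.8) and at 50.9, 61.3 and 50.7 in stress-low, and its log2 fold change of 0.24 (SE 0.08) was 0.19 without animal 30.

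Pde4c, a phosphodiesterase that breaks down cyclic AMP, and C1qtnf9, a secreted relative of complement C1q, had fold changes of over 2 but few reads. Both reached the minimum mean of 1 TPM only in stress-low, so the rule that chose them favored a large difference. Pde4c was at 0.44 ± 0.19 TPM in the controls (SD, n = 6) and 1.04 ± 0.11 in stress-low (n = 3), with 5 to 18 reads in a control library and 21 to 29 in stress-low. C1qtnf9 was at 0.53 ± 0.22 and 1.34 ± 0.48 TPM, with 2 to 11 and 10 to 29 reads. In neither did the groups overlap.

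The other genes of this group differed by less. Mrap2, an accessory protein of melanocortin receptors, was at 21.8 to 26.7 TPM in the controls and at 29.3, 33.4 and 27.8 in stress-low (log2 fold change 0.24, SE 0.07). Slc31a2, a copper transporter, went from 3.17 ± 0.32 to 4.50 ± 0.39 TPM. Carhsp1, an RNA-binding protein, was at 16.5 ± 2.00 and 20.6 ± 0.58 TPM. Akap17a, a splicing-associated anchoring protein, was at 29.3 ± 2.19 and 35.4 ± 2.46 TPM, and 1 stress-low library overlapped the controls.

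Among the leading genes that were lower in stress-low, 3 encode transporters of the solute carrier family and 1 a receptor phosphatase of glia. Slc1a2, the main glutamate transporter of astrocytes, was at 580.9, 496.8, 527.4, 449.9, 536.9 and 494.9 TPM in the controls. It was at 449.4, 491.1 and 390.2 in stress-low. The groups overlapped, and the log2 fold change was -0.25 (SE 0.07, adjusted p = 0.9998 in edgeR), between -0.29 and -0.20 when any 1 library was left out. Slc7a11, the cystine and glutamate exchanger, was at 25.5 to 33.7 TPM in the controls and at 24.7, 23.4 and 23.2 in stress-low, without overlap (log2 fold change -0.29, SE 0.08). In stress-high animals it was at 21.8 to 24.8 TPM. Slc15a2, a peptide transporter, was at 23.1 ± 2.65 and 19.6 ± 0.64 TPM, with overlap. Ptprz1, a receptor phosphatase of astrocytes and oligodendrocyte precursors, was at 66.4 ± 3.69 TPM in the controls and 59.5 ± 5.24 in stress-low.

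Astrocyte markers as a list did not follow Slc1a2. Of 16 tested, 7 were higher and 9 lower, their median log2 fold change was -0.00, and Slc1a2 was the only one at an unadjusted p under 0.05. S100b, a calcium-binding protein of astrocytes, was at 916.2 ± 67.3 TPM in the controls and 936.0 ± 70.3 in stress-low, with a log2 fold change of -0.01 in the fit. Aldoc, an astrocyte glycolytic enzyme, was at 746.6 ± 44.5 and 736.0 ± 58.7.

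Myl3, a myosin light chain best known from muscle, was at 0.87 to 2.11 TPM in the controls and at 0.52, 0.42 and 0.31 in stress-low. The groups did not overlap, and the libraries held 8 to 16 reads in controls and 3 to 5 in stress-low. Ctse, the protease cathepsin E, was at 1.01 ± 0.21 and 0.47 ± 0.08 TPM, without overlap. Myl3 and Ctse reached the minimum mean of 1 TPM only in the controls, so the rule that chose them favored a large difference. In the stress-high animals both were low too, at 0.52 ± 0.24 for Myl3 and 0.55 ± 0.13 for Ctse, against the same controls. Ikzf4, a zinc finger transcription factor, was at 4.88 ± 0.45 and 3.55 ± 0.27 TPM, and Neurl1b, a ubiquitin ligase of Notch ligands, at 9.50 ± 1.19 and 7.15 ± 0.80.

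LNPEP, the insulin-regulated aminopeptidase that cleaves oxytocin and vasopressin, was at 9.83, 11.1, 9.40, 9.72, 6.59 and 7.15 TPM in the controls and at 4.71, 6.03 and 6.09 in stress-low. The groups did not overlap, and the log2 fold change was -0.71 (SE 0.16, adjusted p = 0.9998 in edgeR). The stress-high animals were at 8.08 to 8.65 TPM. In the dentate gyrus (DG) the log2 fold change between stress-low and control was 0.25 (SE 0.12).

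**Figure D2:**
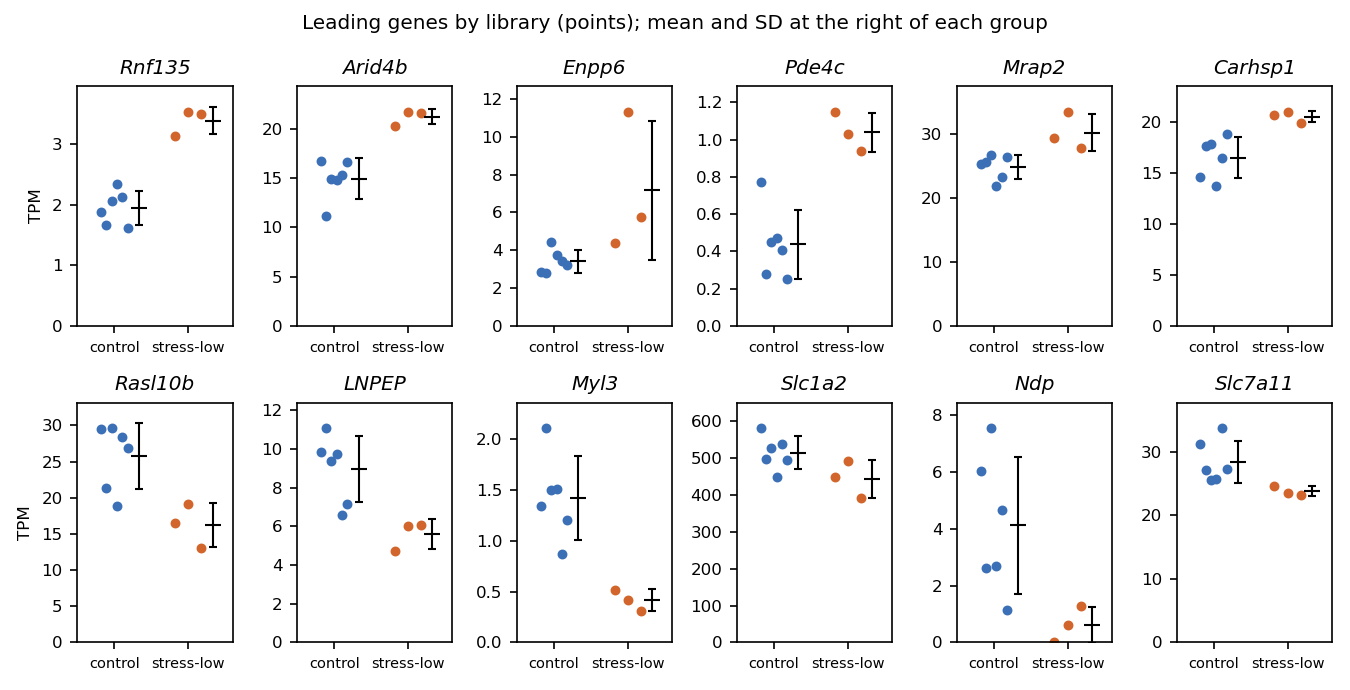
TPM of 12 of the leading genes in each library, with 6 control points in blue, 3 stress-low points in orange, and the mean with its SD in black; each axis starts at 0. Rnf135 does not overlap between the groups, whereas the difference in Enpp6 is largest in 1 library at 11.3 TPM.

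Several of the leading names were split over more than 1 gene model of the annotation, and the models moved apart. Cortactin, an actin-binding protein of dendritic spines, has 2 separate models, whose names differ only in capital letters. CTTN (ENSRNOG00000047280) was at 31.5, 32.8, 32.6, 28.2, 28.9 and 29.5 TPM in the controls and at 22.8, 27.7 and 19.8 in stress-low. It had the smallest p of all genes tested in edgeR (log2 fold change -0.43, SE 0.08), and it was the gene that DESeq2 called (adjusted p = 0.00596, against 0.9998 in edgeR and a highest value of 1 over the alternatives). Cttn (ENSRNOG00000050994) was at 38.3 to 48.3 TPM in the controls and at 59.7, 49.3 and 56.9 in stress-low, the other way (log2 fold change 0.36, SE 0.09). In both models the groups did not overlap.

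The sum of the 2 cortactin models was 72.6 ± 4.55 TPM in the controls and 78.7 ± 3.30 in stress-low. Its log2 fold change was 0.08 (SE 0.07, adjusted p = 0.9997 in edgeR on summed models). How reads were shared between the models was an estimate of the quantification, and its part in the difference was not tested.

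Rasl10b, a small GTPase of the Ras family, had 1 model (ENSRNOG00000010302) at 29.5, 21.3, 29.6, 18.8, 28.4 and 26.9 TPM in the controls and at 16.5, 19.1 and 13.0 in stress-low. The other model (ENSRNOG00000045705) was at 87.9 ± 8.68 and 90.0 ± 5.06 TPM. The first had a log2 fold change of -0.71 (SE 0.14) and the second of -0.00 (SE 0.07), and their sum, 113.7 ± 11.4 against 106.2 ± 7.98 TPM, had one of -0.07 (SE 0.07). Arid4b, a subunit of a histone deacetylase complex, was at 15.0 ± 2.04 and 21.2 ± 0.77 TPM in 1 model, with no overlap, and at 16.8 ± 2.40 and 15.3 ± 1.70 in the other. The summed log2 fold change was 0.11 (SE 0.07).

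Smg6, an endonuclease of nonsense-mediated decay, had 3 models. In the first, all 6 controls were listed at 0 and stress-low at 0, 1.01 and 4.47 TPM, so that 1 stress-low library was at 0 as well. This model reached the minimum mean of 1 TPM only in stress-low, so the rule that chose it favored a large difference. The second was at 9.18 ± 0.92 and 7.23 ± 2.16 TPM, and the third, written SMG6, at a mean of 3.92 and 3.96. The sum was 13.1 ± 1.81 TPM in the controls and 13.0 ± 2.91 in stress-low. Ndp encodes norrin, a secreted ligand of a Frizzled receptor. In the model that led the list it was at 1.13 to 7.55 TPM in the controls and at 0.00, 0.61 and 1.27 in stress-low. This model reached the minimum mean of 1 TPM only in the controls, so here too the rule favored a large difference. Over both its models Ndp was at 19.8 ± 2.40 and 18.1 ± 1.42 TPM. The edgeR fit on summed counts went the other way, at a log2 fold change of 0.06 (SE 0.10). Names with more than 1 model made up 4.22% of the genes tested and 7.40% of those at an unadjusted p under 0.05.

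**Figure D3:**
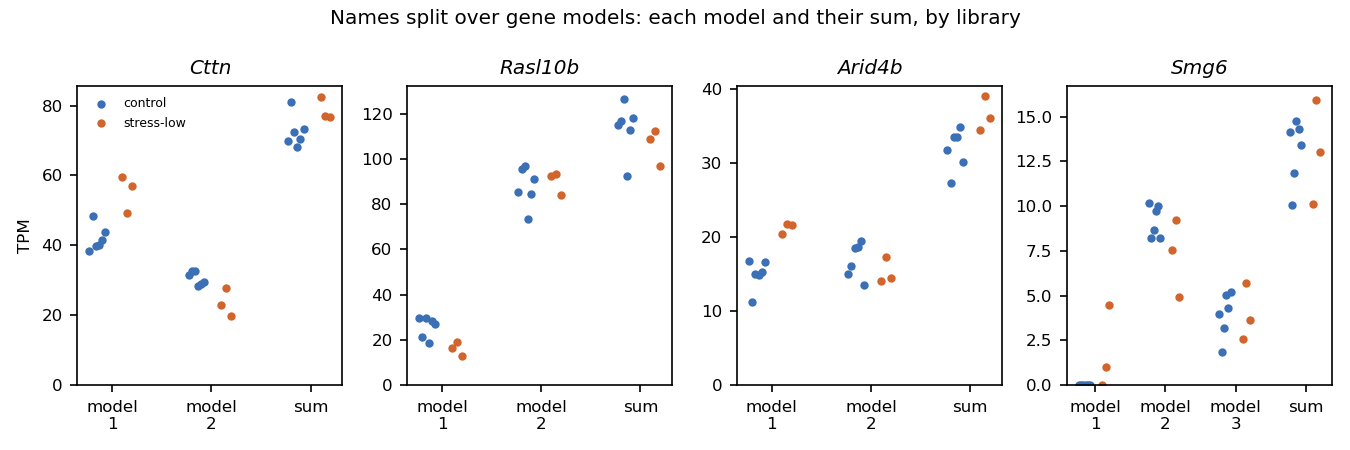
TPM by library of each gene model of 4 split names and of their sum, with controls in blue and stress-low in orange; each axis starts at 0. For Cttn the 2 models are displaced in opposite directions, and the sums lie at 72.6 TPM in the controls and 78.7 in stress-low on average.

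The names that the study lists for its BLA comparisons were chosen by it on these same animals, so their count is no independent evidence. Of 37 such names 36 were found, as 54 gene models of which 50 were tested. At an unadjusted p under 0.05, 7 models were higher and 9 lower, which belong to 14 names, against 2.75% of all genes. With the models of a name summed, 7 of 35 were at that threshold. Mrpl1, a mitochondrial ribosomal protein, was at 6.33 to 14.7 TPM in the controls and at 20.2, 19.4 and 14.9 in stress-low (log2 fold change 0.64, SE 0.20). Pcp4, a calmodulin-binding peptide of neurons, was at 197.8 to 258.6 TPM in the controls and at 233.9, 369.3 and 246.1 in stress-low, and its log2 fold change of 0.34 was 0.15 without animal 30. Acat2, an enzyme of lipid metabolism, was at 23.0 ± 2.27 and 27.3 ± 5.10 TPM, and Ppidl1 at 18.4 ± 3.53 and 14.7 ± 1.52. Mrgbp had a model that was at 0 in all 3 stress-low libraries and also in 3 of the 6 controls.

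Oligodendrocyte and myelin genes shared a direction, largely through 1 animal. In bulk tissue, more cells of a type and more RNA per cell cannot be told apart. Of 24 tested, 23 were higher in stress-low and 1 lower, against 49.1% higher over all genes, with a median log2 fold change of 0.15 (-0.00 over all genes). At an unadjusted p under 0.05 there were 2 (2.75% of all genes), Enpp6 and Cldn11, and none passed an adjusted one. MBP, myelin basic protein, was at 1482, 1185, 1448, 1303, 1261 and 1598 TPM in the controls and at 1404, 2101 and 1378 in stress-low. Animal 30 was above every other library, and animals 22 and 34 were within the controls. Cldn11, the tight junction protein of myelin, was at 86.8 to 107.4 TPM in the controls and at 105.9, 148.2 and 105.1 in stress-low.

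Without animal 30, 14 of the 24 were higher and 10 lower, and the median log2 fold change was 0.01. That of MBP was then 0.01 and that of Cldn11 0.08. Leaving out stress-low 22 gave a median of 0.21 with 5 members at an unadjusted p under 0.05, leaving out stress-low 34 gave 0.22 with 7, and leaving out control 35 gave 0.17 with 7. Over all genes, 176 higher and 243 lower were at that threshold with all libraries. These became 269 and 257 without stress-low 22, 195 and 260 without stress-low 34, and 259 and 267 without control 35. In the DG, which had a partly different set of animals, the log2 fold change of MBP was 0.11 (SE 0.10).

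Markers of the striatum and central amygdala, which border the BLA, had 12 of 15 genes higher and a median log2 fold change of 0.17, with none at an unadjusted p under 0.05. PENK, the enkephalin precursor, was at 320.0, 273.4, 248.4, 189.6, 271.5 and 644.7 TPM in the controls and at 170.0, 632.6 and 307.8 in stress-low. The high libraries were control 35 and stress-low 30. Ppp1r1b, the phosphatase regulator DARPP-32 of striatal neurons, was at 123.1 TPM in control 35 and 103.5 in stress-low 30, and at 42.7 to 69.2 in the other 7 libraries. Without animal 30, 1 of the 15 was higher and 14 lower (median -0.20), and without control 35, 14 of 15 were higher (median 0.46). At an unadjusted p under 0.05 there were then 5 without control 35, 2 without stress-low 22, 2 without stress-low 34 and 0 without stress-low 30. Over all genes the counts at that threshold were 259 higher and 267 lower without control 35 and 269 and 257 without stress-low 22. They were 195 and 260 without stress-low 34 and 198 and 290 without stress-low 30.

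Both lists moved with the library of animal 30, and their part in other results was not tested. The principal neuron markers moved the opposite way. Of 11, 10 were lower and 1 higher (median log2 fold change -0.12). CAMK2A, the alpha subunit of the calcium and calmodulin kinase of excitatory synapses, was at 752.5 to 1028 TPM in the controls (median 905.1) and at 887.8, 762.8 and 798.5 in stress-low. ETV1, a transcription factor of projection neurons, was at 115.7 ± 22.7 and 94.99 ± 11.9 TPM. Both had an unadjusted p under 0.05 (0.0365 and 0.0460) and overlapped between groups. Without animal 30 the median was -0.02, with 7 of 11 lower, and neither gene had a p under 0.05. The same loss of both genes was seen without control 14, 17 or 27. There the medians were -0.13, -0.11 and -0.10, with 9 of 11 lower in each.

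**Figure D4:**
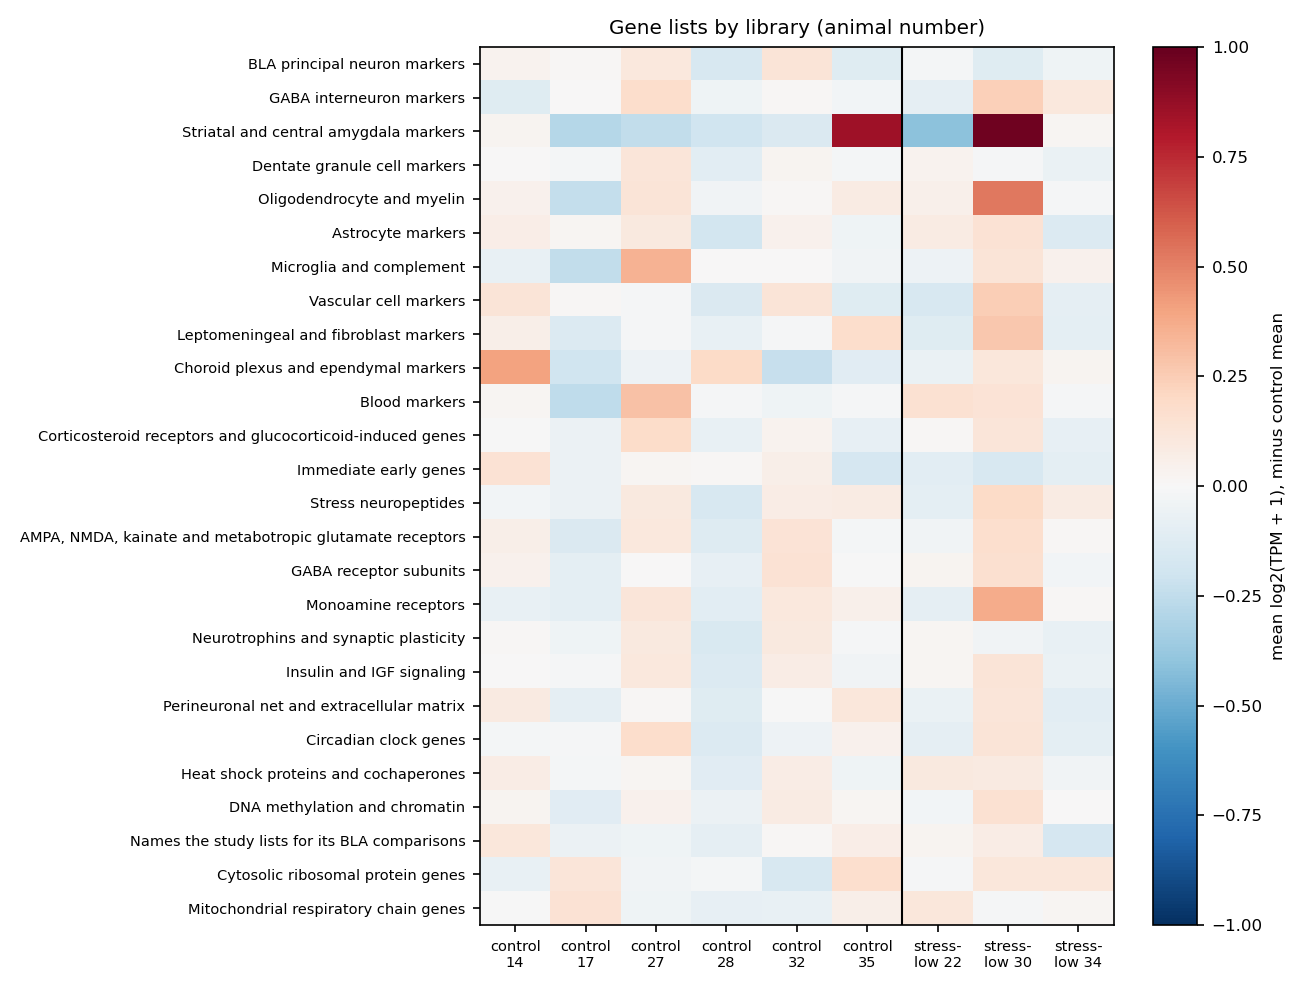
Mean log2(TPM + 1) of the tested members of each gene list in each library, relative to the mean of the 6 controls, from blue (lower) to red (higher). The column of stress-low 30 is red for striatal (0.97) and oligodendrocyte (0.52) genes, and control 35 is red for the striatal list (0.85).

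Immediate early genes, which neurons switch on within minutes of activity, were lower more often than higher. Of 23 tested, 21 were lower and 2 higher, where 49.1% of all genes were higher, and the median log2 fold change was -0.16. At an unadjusted p under 0.05 there were 3 of them (2.75% of all genes), and none passed an adjusted one. Nr4a1, an orphan nuclear receptor, was at 28.8, 19.3, 31.5, 28.9, 28.6 and 20.8 TPM in the controls and at 19.5, 21.5 and 21.6 in stress-low. The stress-low values lay at the lower end of the control range, and the log2 fold change was -0.37 (SE 0.14, adjusted p = 0.9998 in edgeR).

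Egr3, a zinc finger factor of the same program, was at 29.9 to 43.6 TPM in the controls and at 37.3, 28.6 and 27.8 in stress-low (log2 fold change -0.30, SE 0.11). Its unadjusted p was over 0.05 without animal 30 or 34, and that of Nr4a1 without animal 22 or 30. Cyr61 was near its floor, at 0.58 ± 0.49 and 0.17 ± 0.16 TPM. Others had the same sign with larger errors. Arc, a regulator of AMPA receptor traffic, was at 19.2 TPM in the controls and 15.9 in stress-low (log2 fold change -0.32, SE 0.17). Fos was at 4.74 and 4.02 (-0.29, SE 0.33), Junb at 34.5 and 29.2 (-0.28, SE 0.16) and Btg2 at 7.27 and 5.65 (-0.40, SE 0.23). Npas4 and Klf4 were the 2 that were higher, by 0.06 (SE 0.34) and 0.11 (SE 0.21).

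The median stayed below 0 when any 1 stress-low animal was left out, and its size depended on which. The median was -0.07 without animal 30 (18 of 23 lower), -0.27 without animal 22 (20 of 23) and -0.25 without animal 34 (21 of 23). Without control 35, 20 of 22 were lower (median -0.17), and 6 had an unadjusted p under 0.05. Over all genes, 259 higher and 267 lower were at that threshold without control 35. With only the 3 controls that carry the low score label, 17 of 22 were lower (median -0.09), and on the log2(TPM + 1) scale 18 of 22 (-0.12), with none at an unadjusted p under 0.05. Per library, the mean log2(TPM + 1) of the list was -0.10, -0.16 and -0.10 in stress-low relative to the control mean. The controls ranged from -0.17 (animal 35) to 0.14 (animal 14), and so overlapped stress-low. The stress-high animals, against the same controls, were at -0.11, -0.23 and 0.06.

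**Figure D5:**
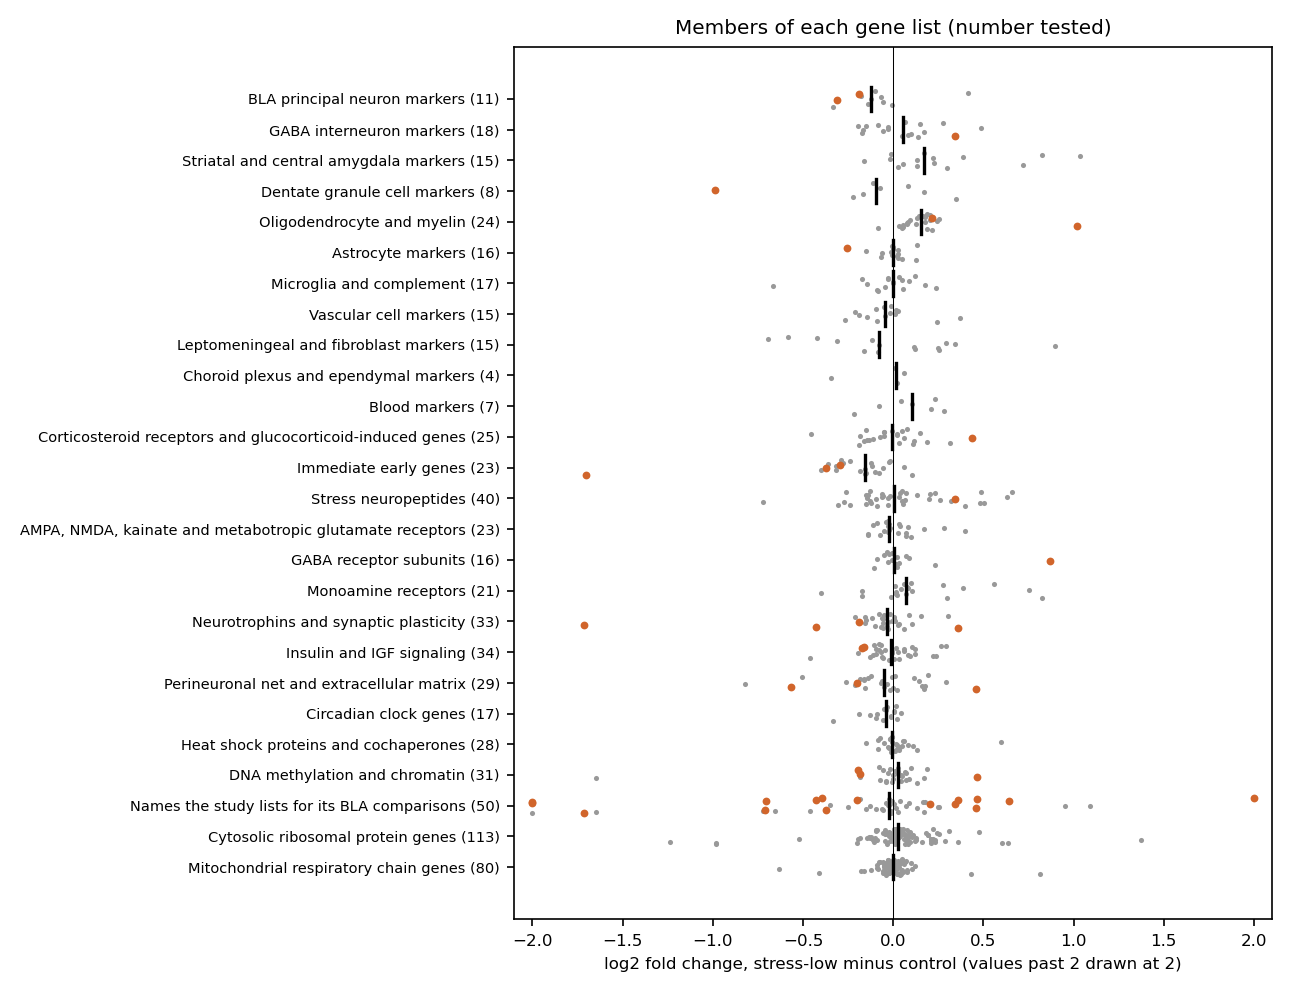
Log2 fold change, stress-low minus control, of every tested member of each gene list, with members at an unadjusted p under 0.05 in orange and the list's median as a black bar; values beyond 2 are drawn at 2. Oligodendrocyte genes sit to the right of 0 (23 of 24) and immediate early genes to the left (21 of 23), while most lists are spread around 0.

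Corticosteroid receptors and genes that glucocorticoids induce had 12 higher and 13 lower of 25 tested, with a median log2 fold change of -0.01. Nr3c1, the glucocorticoid receptor, was at 28.8 TPM in the controls and 31.23 in stress-low in 1 model (log2 fold change 0.07, SE 0.07) and at 24.02 and 22.3 in the other, spelled NR3C1 (-0.15, SE 0.09). Nr3c2, the mineralocorticoid receptor, was at 10.1 and 10.7 TPM (0.05, SE 0.07). Fkbp5, the cochaperone that restrains the glucocorticoid receptor, was at 19.2 and 19.7 TPM, a log2 fold change of -0.01 (SE 0.07). Cdkn1a, a cell cycle inhibitor, was the only member at an unadjusted p under 0.05, at 2.05 to 3.21 TPM in the controls and 3.63, 4.27 and 3.01 in stress-low (0.44, SE 0.15), and it was no longer so without animal 30 (0.34).

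Hsp90aa1, a chaperone of the glucocorticoid receptor, was at 1304 to 1523 TPM in the controls and at 1631, 1545 and 1611 in stress-low, with no overlap on the TPM scale. Its log2 fold change after TMM scaling was 0.11 (SE 0.08). Dusp1, a phosphatase induced by both glucocorticoids and activity, was at 15.5 and 11.6 TPM (-0.45, SE 0.22). Of 28 heat shock genes 13 were higher and 15 lower (median -0.01).

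Stress neuropeptides and their receptors were evenly divided, with 20 higher and 20 lower of 40 tested and a median log2 fold change of 0.01. Crh was at 1.44 TPM in the controls and 1.503 in stress-low (log2 fold change 0.05, SE 0.26), and its receptor Crhr1 at 18.7 and 17.3 (-0.13, SE 0.11). Npy was at 11.7 and 16.9 TPM (0.49, SE 0.47). Tac1, the precursor of substance P, was the only member at an unadjusted p under 0.05. It was at 6.44 to 9.19 TPM in the controls and at 8.47, 12.0 and 9.09 in stress-low (0.34, SE 0.14), and without animal 30 its log2 fold change was 0.22 and it was no longer at that threshold. In stress-high Tac1 was at 10.4 to 13.0 TPM, above every control. The number of members at that threshold was 5 without control 35, 5 without control 27, 5 without stress-low 22, 3 without stress-low 34 and 5 with a replicate block. Over all genes there were 176 higher and 243 lower with all libraries. These became 259 and 267 without control 35, 198 and 209 without control 27, and 269 and 257 without stress-low 22. They were 195 and 260 without stress-low 34 and 232 and 250 with the block.

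Ionotropic and metabotropic glutamate receptors had 10 higher and 13 lower of 23, with a median log2 fold change of -0.02 and a range of -0.14 to 0.40, and none at an unadjusted p under 0.05. Gria2, an AMPA receptor subunit, was at 218.2 ± 23.8 TPM in the controls and 217.6 ± 1.08 in stress-low. Of 16 GABA receptor subunits 8 were higher and 8 lower (median 0.00), and Gabre, a rare subunit at 0.42 ± 0.15 and 0.79 ± 0.25 TPM, was the only one at an unadjusted p under 0.05. Without animal 30 the log2 fold change of Gabre was 0.53 in place of 0.87, and no subunit was at that threshold. Monoamine receptors had 17 of 21 higher (median 0.07), which became 10 of 21 (median -0.02) without animal 30.

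Neurotrophin and plasticity genes had 12 higher and 21 lower of 33 (median -0.03). Bdnf was at 18.7 TPM in the controls and 18.3 in stress-low (log2 fold change -0.08, SE 0.21). Besides both cortactin models and CAMK2A, 1 of 2 models of Rin1, a Ras effector of amygdala neurons that restrains plasticity, had an unadjusted p under 0.05, at 0.25 to 5.06 TPM in the controls and 1.08, 1.90 and 0.00 in stress-low. The other Rin1 model was at 26.8 ± 3.79 and 27.8 ± 3.21 TPM.

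Insulin and IGF signaling genes had 15 higher and 19 lower of 34 (median -0.01). Irs2, an adaptor of the insulin receptor, was at 22.4 ± 2.71 and 20.4 ± 0.58 TPM and Akt2, a kinase downstream of it, at 20.1 ± 1.64 and 18.3 ± 0.81. Chromatin genes had 17 of 31 higher (median 0.03). Hdac4, a histone deacetylase, was at 12.8 ± 1.59 and 11.5 ± 0.55 TPM (log2 fold change -0.18, SE 0.08). Extracellular matrix genes had 11 of 29 higher (median -0.05). Col6a1, a collagen chain, was at 4.46 ± 1.07 and 6.16 ± 0.81 TPM and Timp1, an inhibitor of matrix proteases, at 3.48 ± 0.71 and 2.40 ± 0.27.

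The remaining lists are given by their counts, beside 49.1% higher over all genes. Microglial genes had 8 of 17 higher (median -0.00) and none at an unadjusted p under 0.05, as had vascular (5 of 15, -0.05), leptomeningeal (7 of 15, -0.08), blood (5 of 7, 0.10), circadian (5 of 17, -0.04) and choroid plexus genes (3 of 4, 0.02). Without animal 30, 1 of 15 vascular genes was higher (median -0.13) and 2 were at that threshold, and without animal 22, 9 of 15 were higher. Interneuron markers had 10 of 18 higher (median 0.06), with Tac1 alone at that threshold. That number was 0 without animal 30 or control 32, 3 without control 35 and 5 without animal 22. Over all genes the counts were 198 higher and 290 lower without animal 30 and 155 and 235 without control 32. They were 259 and 267 without control 35 and 269 and 257 without animal 22. There were 3 of 8 dentate granule cell markers higher (-0.09), with Dsp alone at that threshold, at 0.25 ± 0.10 and 0.12 ± 0.08 TPM. Cytosolic ribosomal protein genes had 80 of 113 higher, with a median of only 0.03 and none at an unadjusted p under 0.05. Their count was 53 of 113 without stress-low animal 34 and 57 of 113 without control 32. Respiratory chain genes had 37 of 80 higher (median -0.00), and this count moved from 18 without stress-low 22 to 63 without stress-low 30, with 23 without stress-low 34, 21 without control 32 and 59 without control 17.

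The stress-low difference was also set beside that in the DG, where 5 controls and 3 stress-low libraries were used, with 6 of the animals in both comparisons. The DG controls were animals 2, 14, 17, 28 and 32, and the DG stress-low animals were 22, 33 and 34. In the DG the library of control 35 was left out as an outlier and that of animal 2 was kept, the reverse of the BLA. No gene had a BLA difference that departed from its DG difference at an adjusted p under 0.05 (0 of 15453 genes, 496 at an unadjusted p under 0.05, edgeR). The fit held no term for the animal, so BLA and DG libraries of the same animal were taken as independent. A test that pairs them was not run. Rnf135 had a log2 fold change of 0.75 (SE 0.16) in the BLA and 0.46 (SE 0.21) in the DG, and Mrpl1 of 0.64 (SE 0.20) and 0.50 (SE 0.21). Cttn stood at 0.36 (SE 0.09) and -0.02 (SE 0.04), Pcp4 at 0.34 (SE 0.11) and -0.16 (SE 0.11), and Slc1a2 at -0.25 (SE 0.07) and -0.05 (SE 0.11). Enpp6 was at 1.02 (SE 0.23) and 0.26 (SE 0.28). None of these genes was shown to differ between the regions by this test, which left out the sharing of animals.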

How the data were processed

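Poly-A RNA of left BLA and DG punches was sequenced by the authors, aligned with STAR 2.6.0a to Rn5 and quantified with RSEM 1.3.1 on Ensembl build 75. The authors deposited, for each gene and library, an expected count, RSEM's estimate of its reads, which can hold fractions. Beside it they deposited RSEM's TPM, scaled within each library. Of 26312 gene identifiers 5742 had no name. Coordinates were not used here.

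Expected counts were rounded and tested in R 4.3.3 with edgeR 4.0.16 by its quasi-likelihood test after TMM scaling and filterByExpr (count minimum 10), with 1 mean each for control, stress-low and stress-high BLA and Benjamini-Hochberg adjustment and a threshold of 0.05. The study's methods named EBSeq, which was not run here. Single TPM values were compared by exact permutation. DESeq2 1.42.0 and limma 3.58.1 were among 21 alternatives. The fits were tested on simulated data. Labels give 1 library per animal, and p-values measure the spread between these animals.

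Members and lists were chosen with earlier results of these data known. Named genes were the 12 with the smallest unadjusted p in each direction among named genes whose mean TPM reached 1 in the control or the stress-low libraries, list members at an unadjusted p under 0.05, the 2 most abundant members of each list, and study-listed names split over gene models. Other list members are named for their role, after their values were seen. Some genes that this rule takes are not reported here.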

Additional observations from a re-analysis of the deposited data

Results flagged for a closer look

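Among the 6 controls, 13 of 120 named gene models had 1 library whose TPM lay far from the others. In these the gap to the nearest value, as a share of the range, was above Dixon's critical value of 0.625. Chance alone gives that for about 1 in 20 where values are normally spread. Models mostly at 0, such as MYH9 and TPI1, are not, so that rate is only a guide. Control 17 was apart for Arid4b (11.2 TPM, others 14.8 to 16.8), Cck (708.5, others 511.4 to 564.5), MYH9 (3.98, others at 0) and TPI1 (42.0, others at 0). Control 35 was apart for PENK (644.7, others 189.6 to 320.0), Ppp1r1b (123.1, others 42.7 to 67.6) and Pcp4 (258.6, others 197.8 to 218.1). Control 28 was apart for Gsk3a (136.8, others 163.0 to 178.7), Hsp90ab1 (1112, others 1271 to 1317) and Atp5b (965.1, others 1099.7 to 1155). The remaining 3 were Ccdc153 in control 14 (2.91, others 1.02 to 1.6), Homer1 in control 32 (60.2, others 47.1 to 51.7) and CLIP3 in control 27 (76.5, others 14.5 to 29.7).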

How the results depend on the processing

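The count of 0 genes at an adjusted p under 0.05 held in 17 of 21 alternatives, all 9 that left out 1 library among them. DESeq2 gave 1 (CTTN), the 3 controls with the low score label gave 1 (Psmb6, log2 fold change 2.01, adjusted p = 0.0324), limma on log2(TPM + 1) gave 1 and on log2(TPM + 0.1) gave 2. The limma calls were unnamed genes with at most 5 reads in any control and 0 in stress-low, chosen here after their values were seen. The count at an unadjusted p under 0.05 and higher in stress-low was 296 with no low-count filter, 277 with limma on log2(TPM + 1), 485 with limma on all genes, and 155 to 269 when 1 library was left out (269 without stress-low 22). The count of lower genes was 113 and 126 with limma at the larger and the smaller pseudocount and 209 to 290 when 1 library was left out. Summing gene models turned the direction of 4 named models, to a log2 fold change of 0.0758 for CTTN, 0.0565 for Ndp, 0.0226 for Mrgbp and -0.0713 for the first Smg6 model. Of the 24 leading genes, those with an exact p under 0.05 were 12 with all 7 controls and 13 to 19 when 1 library was left out, 13 of them without stress-low 34, where fewer libraries raise the smallest p. The replicate numbers of the titles did not pair the animals (correlations of same-numbered deviations -0.19 to 0.07), and with a replicate block 482 genes had an unadjusted p under 0.05, 232 higher and 250 lower, and 0 an adjusted one. For 75.4% of genes the 95% interval lay within 1.5-fold, and in the others a difference of 1.5-fold or more was not excluded.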
